A study of Mus musculus with 12 samples.

Results

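A set of 9 genes of the early nephron, most of them transcription factors, *Lhx1*, *Pax8*, *Pou3f3*, *Emx2*, *Irx1*, *Irx2*, *Irx3*, *Sim1* and *Cdh6*, were followed through whole kidneys of newborn mice. They were chosen by name, as the 9 of 24062 gene symbols in the count files that equal a listed member, and all 9 passed the filter on low counts in every comparison. RNA from 12 kidneys taken at postnatal day 3 was sequenced, with 3 kidneys from 2 litters in each of 4 groups, and the groups are plotted gene by gene in the plot of levels by kidney. The question behind the comparisons was how a longer period of nephron formation in mice with excess LIN28B, or without part of the let-7 family, shows in the RNA of the kidney.

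*LIN28B Wt1* kidneys came from C57BL/6 mice with a doxycycline-inducible human *LIN28B* transgene, switched on through a stop cassette and the *rtTA* activator in cells with a history of *Wt1-Cre* activity, which include stroma as well as nephron progenitors. Their controls were littermates labelled wild type on the same background. Which of the transgenes those littermates carried is not given in the sources used here. For its main *LIN28B* experiments the paper describes a brief pulse of doxycycline before birth, after which LIN28B persisted into postnatal life. It gives no separate schedule for the sequenced kidneys. *let-7* KO kidneys came from mice with a constitutive loss of *let-7a-1*, *let-7d* and *let-7f-1*, and their *let-7* WT littermates shared the mixed CD1 and C57BL/6 background. Other let-7 genes remain in these animals.

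Nephrons arise when cap mesenchyme condenses and epithelializes into a renal vesicle, which lengthens through comma- and S-shaped bodies and is patterned along its axis into podocytes, proximal tubule, loop of Henle and distal tubule. *Pax8* acts with *Pax2* in the nephric lineage, *Lhx1* is needed for patterning of the renal vesicle, *Pou3f3* (also called Brn1) for the loop and distal segments, and *Emx2* for the ureteric bud and the mesenchyme it meets. The Iroquois genes *Irx1*, *Irx2* and *Irx3* mark the middle of the S-shaped body, and *Sim1* and *Cdh6*, a cadherin, mark early proximal tubule cells. LIN28 proteins block the maturation of let-7 microRNAs, which repress messages that pair with their seed.

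The deleted microRNAs share a seed, shown in capitals (bases 2 to 8 of the mature RNA, RefSeq, GRCm38.p6), and differ from each other in the remaining bases. Their genes lie within 2.26 kb of each other at chr13:48536012-48538272 (GRCm38).
let-7a-5p: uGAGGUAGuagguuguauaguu
let-7d-5p: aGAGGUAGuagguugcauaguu
let-7f-5p: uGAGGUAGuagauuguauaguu

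A match to this seed was searched in the annotated 3′ UTR of each gene (GENCODE M21), as CTACCTCA, CTACCTC or TACCTCA on the transcript's strand. *Irx2* was the only member with a match, and it is shown because it is the single seed match in the 3′ UTRs of the group. The match, in capitals, begins at base 713 of the 3′ UTR, and the bases shown lie at chr13:72633943-72633970 on the plus strand (GRCm38).
Irx2: aaaggtggtcCTACCTCAccttttaagt
Of the 9 members 1 (11.1%) thus carried a match, against 2431 of 14841 genes (16.4%) with an annotated 3′ UTR. The median 3′ UTR length was 1265 bases among the members and 1119 bases among those genes. In these kidneys the *Irx2* level gave no call in either mutant, as described with its values.

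Labels of both mutants could be checked only in part against the counts before the results. The deposited tables have no row for the human transgene, but reads on mouse *Lin28b* numbered 232, 224 and 71 in *LIN28B Wt1* kidneys against 0, 18 and 33 in controls. By qRT-PCR the paper saw no change of the endogenous *Lin28b* message in such kidneys. Whether reads of the human transgene were counted on the mouse gene was not tested. *Mirlet7d*, the precursor of let-7d, was listed at 0 in all 3 *let-7* KO kidneys, and at 0, 19 and 35 counts in *let-7* WT. A 0 therefore does not by itself tell a KO kidney from a WT kidney. Genes of the proximal tubule summed to between 2073 and 7414 CPM (read counts scaled to the library total) and those of podocytes to between 676 and 1042 CPM, so kidney markers were present in every group. Counts per kidney summed to between 39926235 and 61872736, so that 3 counts correspond to between 0.0485 and 0.0751 CPM, far below every member. Levels are given as CPM scaled by TMM factors over all 12 kidneys.

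Per kilobase of the longest transcript, *Pax8* was the most abundant member in all 4 groups and *Sim1* the least. In *LIN28B* control kidneys *Pax8* reached 82.3 ± 0.641 CPM per kb (SD, n = 3) and *Emx2* 30.1 ± 2.10 CPM per kb (SD, n = 3). *Irx3* at 18.7 ± 0.803 and *Lhx1* at 18.3 ± 3.71 CPM per kb (SD, n = 3 each) came next and were not separated by their spread. From *Cdh6* at 7.23 ± 2.43 CPM per kb (SD, n = 3) down through *Irx2*, *Pou3f3* and *Irx1* to *Sim1* at 2.80 ± 0.473 CPM per kb (SD, n = 3), the ranges of neighbours in the order overlapped. *Emx2* was second in the other groups too, except in *let-7* KO kidneys, where *Irx3* stood above it with an overlapping range. *Cdh6* stood at rank 7 in *LIN28B Wt1* and *let-7* WT kidneys and at rank 8 in *let-7* KO kidneys.

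**Figure D1:**
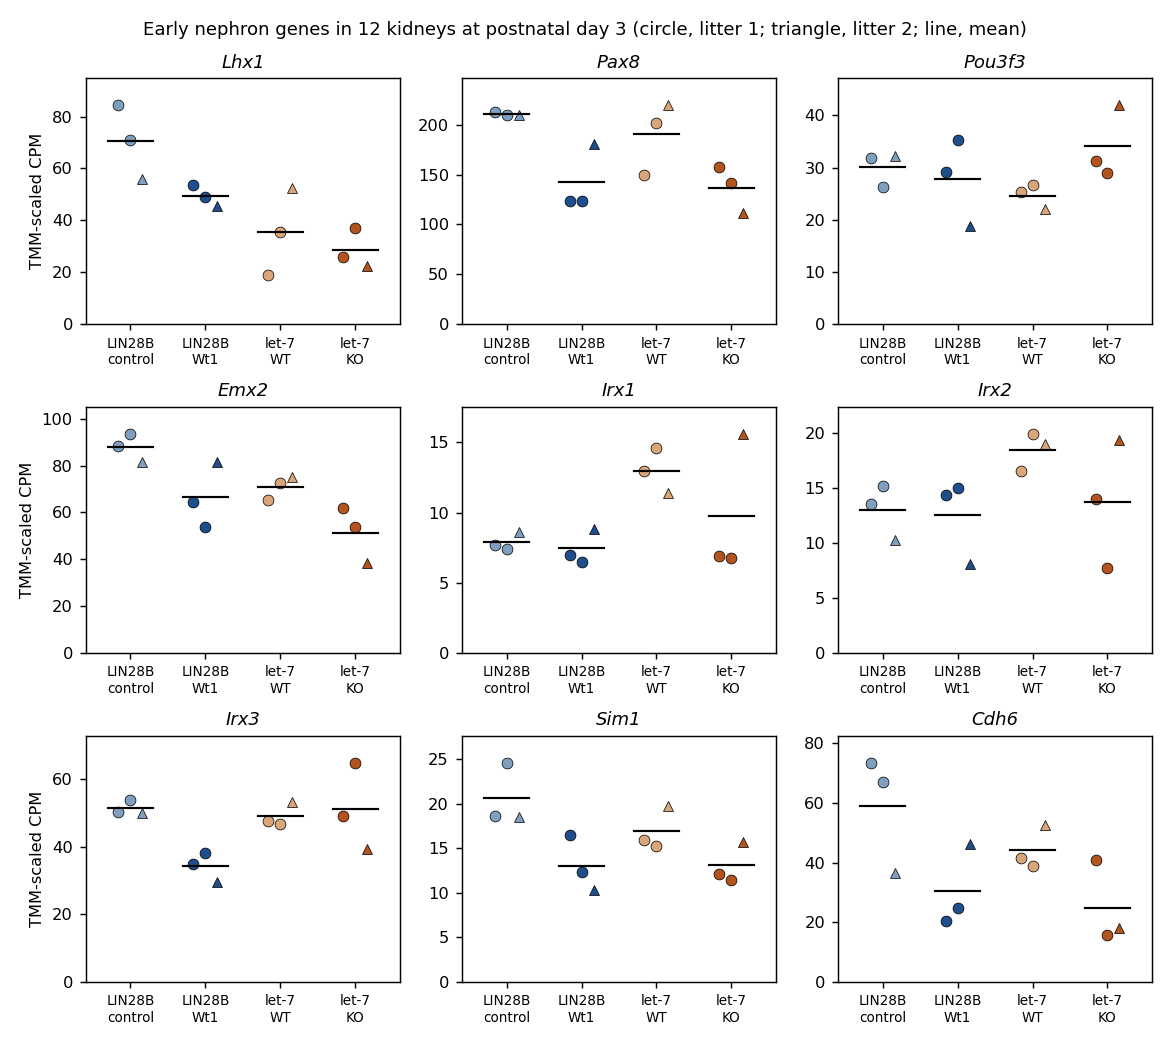
Level of each gene in each kidney, as TMM-scaled CPM (counts scaled to the library total, linear axis from 0), for the 4 groups of 3 kidneys. Circles are kidneys of litter 1, triangles kidneys of litter 2 and lines group means. Irx3 in LIN28B Wt1 kidneys (29.6 to 38.1 CPM) lies below its controls (49.9 to 53.9 CPM), while Cdh6 of the litter 2 kidneys goes the other way from litter 1.

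With excess LIN28B, every member had a negative log2 fold change, from -0.06 for *Irx2* to -0.95 for *Cdh6*, with a median of -0.51, against -0.02 over all 15793 genes tested. *Pax8* and *Irx3* fell past the threshold of the study, an unadjusted p below 0.01 in edgeR's quasi-likelihood test, and none was raised. That is 2 of 9 members, where 7.33% of all genes tested had a p below 0.01 (3.25% raised and 4.08% lowered). After Benjamini-Hochberg adjustment over all genes no member passed 0.05 in edgeR's quasi-likelihood test, as against 1.23% of all genes. The 3 mutant kidneys lay below all 3 controls for *Lhx1*, *Pax8*, *Irx3* and *Sim1*, 4 of 9, and 13.5% of all genes showed that order. In whole kidneys, fewer cells of a type and less RNA per cell cannot be told apart.

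*Pax8* (ENSMUSG00000026976, chr2:24420560-24475599, minus strand, 12 exons in its longest transcript) stood at 213, 210 and 210 CPM in the *LIN28B* controls and at 123, 124 and 181 CPM in the *LIN28B Wt1* kidneys. The controls were nearly level, and the litter 2 mutant lay between them and the other mutants. The log2 fold change was -0.56 (SE 0.17, 95% interval -0.94 to -0.17), or 1.47-fold lower, past the threshold before adjustment, with an adjusted p of 0.133 (edgeR quasi-likelihood test, Benjamini-Hochberg). Only 1 of 6 fits that each left out 1 kidney kept its p below 0.01. That fit left out the litter 2 mutant, and its log2 fold change was -0.78.

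*Irx3* (ENSMUSG00000031734, chr8:91798525-91802067, minus strand, 4 exons), the Iroquois gene with the most reads of the 3, was at 50.3, 53.9 and 49.9 CPM in controls and at 34.8, 38.1 and 29.6 CPM in *LIN28B Wt1* kidneys. The groups were 11.8 CPM apart at their closest, so that each litter showed the gap. Its log2 fold change was -0.59 (SE 0.16, 95% interval -0.95 to -0.22), past the threshold before adjustment, with an adjusted p of 0.108 (edgeR quasi-likelihood test, Benjamini-Hochberg). Its value stayed between -0.65 and -0.50 whichever kidney was left out, and p stayed below 0.01 in 1 of those 6 fits, the one without mutant replicate 2 of litter 1.

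*Irx1* (ENSMUSG00000060969, chr13:71957921-71963723, minus strand) and *Irx2* (ENSMUSG00000001504, chr13:72628820-72634198, plus strand), the neighbouring Iroquois genes, showed no such gap. *Irx1* was at 7.72, 7.41 and 8.61 CPM in controls and 7.01, 6.47 and 8.86 CPM in *LIN28B Wt1* kidneys. *Irx2* was at 13.5, 15.2 and 10.3 CPM in controls and 14.3, 15 and 8.08 CPM in mutants. In both genes the litter 2 kidneys of both genotypes lay on the same side of the litter 1 kidneys, higher for *Irx1* and lower for *Irx2*. The log2 fold changes were -0.08 for *Irx1* (95% interval -0.75 to 0.59) and -0.06 for *Irx2* (95% interval -0.74 to 0.62), so a change of the size of *Irx3* lies within both intervals.

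*Lhx1* (ENSMUSG00000018698, chr11:84518284-84525535, minus strand, 5 exons) was at 84.6, 70.9 and 56.1 CPM in controls and at 53.5, 48.9 and 45.7 CPM in *LIN28B Wt1* kidneys. The lowest control was 2.58 CPM above the highest mutant. The log2 fold change was -0.51 (SE 0.18, adjusted p = 0.180, edgeR quasi-likelihood test with Benjamini-Hochberg adjustment), short of the threshold. *Lhx1os*, a non-coding gene that starts next to it on the other strand, had a log2 fold change of -0.58, likewise short of it.

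*Sim1* (ENSMUSG00000019913, chr10:50894754-50989152, plus strand, 11 exons) was at 18.6, 24.6 and 18.5 CPM in controls and at 16.5, 12.3 and 10.3 CPM in *LIN28B Wt1* kidneys, without overlap. Its log2 fold change was -0.66 (SE 0.25, adjusted p = 0.207, edgeR quasi-likelihood test with Benjamini-Hochberg adjustment).

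*Cdh6* (ENSMUSG00000039385, chr15:13028701-13173675, minus strand, 12 exons) had the widest spread relative to its mean in both groups of the *LIN28B Wt1* experiment (coefficient of variation 33.7% in controls and 45.5% in mutants). It was at 73.6, 67.2 and 36.4 CPM in controls and at 20.3, 24.8 and 46.3 CPM in *LIN28B Wt1* kidneys. In litter 1 the mutants lay far below the controls, and in litter 2 the mutant lay above its control. Pooled, it came to a log2 fold change of -0.95 (SE 0.35, adjusted p = 0.191, edgeR quasi-likelihood test with Benjamini-Hochberg adjustment). DESeq2 gave -0.93 and called it at p below 0.01. Without the litter 2 mutant, the kidney that ran against the other mutants, edgeR gave -1.40 with an adjusted p of 0.0162. Without mutant replicate 1 it gave -0.72. Of 6 fits that each left out 1 kidney, 2 had a p below 0.01 in edgeR's quasi-likelihood test.

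*Emx2* (ENSMUSG00000043969, chr19:59458372-59465357, plus strand, 3 exons) was at 88.2, 93.7 and 81.4 CPM in controls and at 64.3, 53.8 and 81.5 CPM in *LIN28B Wt1* kidneys. The litter 2 mutant equalled the litter 2 control, and the other mutants lay below all controls. With all kidneys the log2 fold change was -0.40 (SE 0.18, adjusted p = 0.290), and without the litter 2 mutant it was -0.58 (adjusted p = 0.0330), both in edgeR's quasi-likelihood test with Benjamini-Hochberg adjustment. Without mutant replicate 2 it was -0.25. Only 1 of 6 fits that each left out 1 kidney had a p below 0.01 in edgeR's quasi-likelihood test. *Emx2* shares 264 exonic bases (8.79% of its exonic length) with the antisense gene *Emx2os*, whose log2 fold change was -0.13.

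*Pou3f3* (ENSMUSG00000045515, chr1:42695768-42703176, plus strand, 1 exon) was at 31.9, 26.3 and 32.2 CPM in controls and at 29.1, 35.2 and 18.8 CPM in *LIN28B Wt1* kidneys. Both the highest and the lowest kidney were mutants. A log2 fold change of -0.12 resulted (95% interval -0.66 to 0.42).

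**Figure D2:**
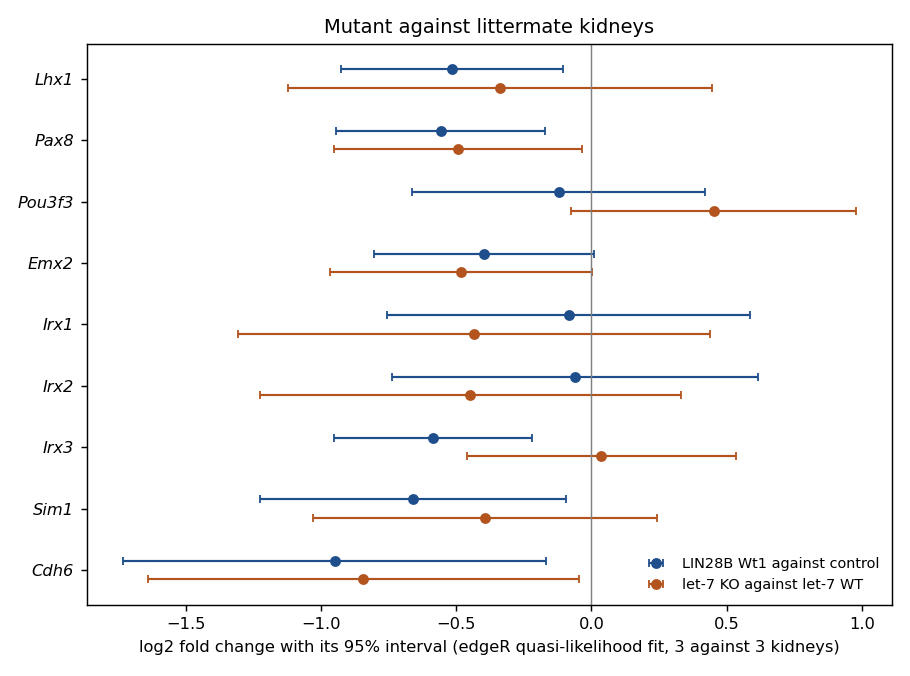
Log2 fold change of each gene in LIN28B Wt1 against control kidneys (blue) and in let-7 KO against let-7 WT kidneys (orange), 3 against 3 kidneys, with 95% intervals from the edgeR quasi-likelihood fit. All 9 blue points lie below 0, and Irx3 (-0.59 and 0.04) and Pou3f3 (-0.12 and 0.45) are the genes whose points lie farthest apart.

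In *let-7* KO kidneys no member passed p below 0.01 in edgeR's quasi-likelihood test, where 2.73% of the 15500 genes tested did (0.0194% after adjustment). *Pax8* and *Cdh6* had a p below 0.05, as did 10.8% of all genes, and DESeq2 also called none at p below 0.01. Of the 9 log2 fold changes 7 were negative, with a median of -0.43 against -0.02 over all genes tested. *Emx2* was lower and *Pou3f3* higher in all 3 KO kidneys than in any WT kidney, 2 of 9 members, and 16.7% of all genes were without overlap in either direction.

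*Pax8* was at 149, 202 and 220 CPM in *let-7* WT and at 157, 141 and 112 CPM in *let-7* KO kidneys, so that 1 WT kidney lay within the range of the KO group. The log2 fold change was -0.49 (SE 0.21, 95% interval -0.95 to -0.03) with an adjusted p of 0.429 (edgeR quasi-likelihood test, Benjamini-Hochberg). *Emx2* was at 65.1, 72.4 and 75.3 CPM in WT and at 61.7, 53.6 and 38.6 CPM in KO kidneys. Its groups were 3.43 CPM apart, and its log2 fold change was -0.48 (SE 0.22, adjusted p = 0.462, edgeR quasi-likelihood test with Benjamini-Hochberg adjustment).

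*Cdh6* was at 41.5, 38.7 and 52.6 CPM in *let-7* WT and at 40.7, 15.6 and 18.1 CPM in *let-7* KO kidneys. A KO kidney of litter 1 lay among the WT kidneys, and the other KO kidneys lay far below them. Over all 3 against 3 kidneys the log2 fold change was -0.84 (SE 0.36, adjusted p = 0.435, edgeR quasi-likelihood test with Benjamini-Hochberg adjustment). Without that KO kidney, replicate 1, it was -1.43, with an adjusted p of 0.0726 in edgeR's quasi-likelihood test with Benjamini-Hochberg adjustment. Without KO replicate 2 it was -0.59. Only 1 of 6 fits that each left out 1 kidney had a p below 0.01 in edgeR's quasi-likelihood test.

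*Pou3f3*, the factor of the loop and distal tubule, was at 25.2, 26.6 and 22.1 CPM in *let-7* WT and at 31.3, 29.05 and 42.1 CPM in *let-7* KO kidneys. All KO kidneys were higher, with the litter 2 kidney far above the rest. This is a log2 fold change of 0.45 (SE 0.24, adjusted p = 0.524, edgeR quasi-likelihood test with Benjamini-Hochberg adjustment). *Pou3f3os*, its neighbouring non-coding gene, had a log2 fold change of 0.50 and was not called either.

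*Lhx1* was at 18.9, 35.4 and 52.4 CPM in *let-7* WT kidneys, a range that took in all KO kidneys at 25.95, 37.0 and 22.4 CPM. *Sim1* was at 15.9, 15.3 and 19.8 CPM in WT and at 12.1, 11.4 and 15.7 CPM in KO kidneys, lower in each litter but overlapping between litters. Their log2 fold changes were -0.34 (95% interval -1.12 to 0.45) and -0.39 (95% interval -1.03 to 0.24).

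*Irx3* was at 47.6, 46.8 and 53.2 CPM in *let-7* WT and at 48.9, 64.9 and 39.3 CPM in *let-7* KO kidneys, with the highest and the lowest value both in KO. *Irx1* was at 12.9, 14.6 and 11.4 CPM in WT and at 6.91, 6.77 and 15.6 CPM in KO kidneys. *Irx2*, the member with the let-7 seed match, was at 16.5, 19.9 and 18.9 CPM in WT and at 14.0, 7.74 and 19.4 CPM in KO kidneys. For *Irx1* and *Irx2* the KO kidneys of litter 1 lay below every WT kidney and the KO kidney of litter 2 did not. The log2 fold changes were 0.04 for *Irx3* (95% interval -0.46 to 0.53), -0.43 for *Irx1* (95% interval -1.31 to 0.44) and -0.45 for *Irx2* (95% interval -1.23 to 0.33). *Irx1* and *Irx2* lie on the chromosome of the deleted microRNAs, 23.4 and 24.1 Mb away from them, and which strain's alleles the mixed background carried there was not tested.

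The effects in the mutants were compared in a fit of all 12 kidneys. No member had a p below 0.01 for the difference, where 1.55% of 16598 genes did, and DESeq2 likewise called none. *Irx3* was the only member with a p below 0.05, as 6.27% of all genes had. Its effect in *let-7* KO was 0.64 above that in *LIN28B Wt1*, in log2 units (SE 0.28, 95% interval 0.05 to 1.23, adjusted p = 0.762, edgeR quasi-likelihood test with Benjamini-Hochberg adjustment). *Pou3f3* followed, with 0.59 (95% interval -0.14 to 1.32). For *Pax8* the difference was 0.08 (95% interval -0.50 to 0.66) and for *Cdh6* 0.12 (95% interval -1.04 to 1.28), intervals that take in differences as large as the effects themselves.

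Each group held 2 kidneys of litter 1 and 1 kidney of litter 2, and the ratio of mutant to control means was formed within each litter. This takes the same litter number in mutants and controls to mean the same litter. In the *LIN28B Wt1* experiment 4 of 9 members had a ratio of the same sign in both litters, all below 1. These were *Pax8* (log2 ratio -0.77 in litter 1 and -0.21 in litter 2), *Lhx1* (-0.60 and -0.30), *Irx3* (-0.51 and -0.75) and *Sim1* (-0.59 and -0.85). Their mutant kidneys all lay below all controls, an order that forces a ratio below 1 in both litters. The share of all genes with the same sign in both litters was not computed. *Cdh6* went from -1.64 to 0.35 and *Emx2* from -0.62 to 0.00. The litter 2 mutant also had the lowest *Lin28b* count of the mutants. Its listed cap mesenchyme genes summed to 831 CPM, against 683 and 667 CPM in the other mutants. Its listed proximal tubule genes summed to 2073 CPM, against 2399 and 2510 CPM. The part of these differences in the members' values was not tested.

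In the *let-7* experiment 5 of 9 members had the same sign in both litters. *Pax8* (-0.23 and -0.98), *Emx2* (-0.26 and -0.97), *Sim1* (-0.40 and -0.33) and *Cdh6* (-0.51 and -1.54) were lower in KO, and *Pou3f3* (0.22 and 0.93) was higher. For *Emx2* and *Pou3f3* the same sign followed from their groups not overlapping. *Lhx1* went from 0.21 in litter 1 to -1.23 in litter 2 and *Irx1* from -1.01 to 0.45. *Pax8* and *Sim1* were thus the members with a lower mutant mean in both litters of both experiments. The share of all genes with that pattern, or with the same sign in both *let-7* litters, was not computed. Litter 2 is 1 kidney against 1, so its ratio has no error. A fit with the litter as a replicate block called the same number of members, 2 with excess LIN28B and 0 in *let-7* KO.

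**Figure D3:**
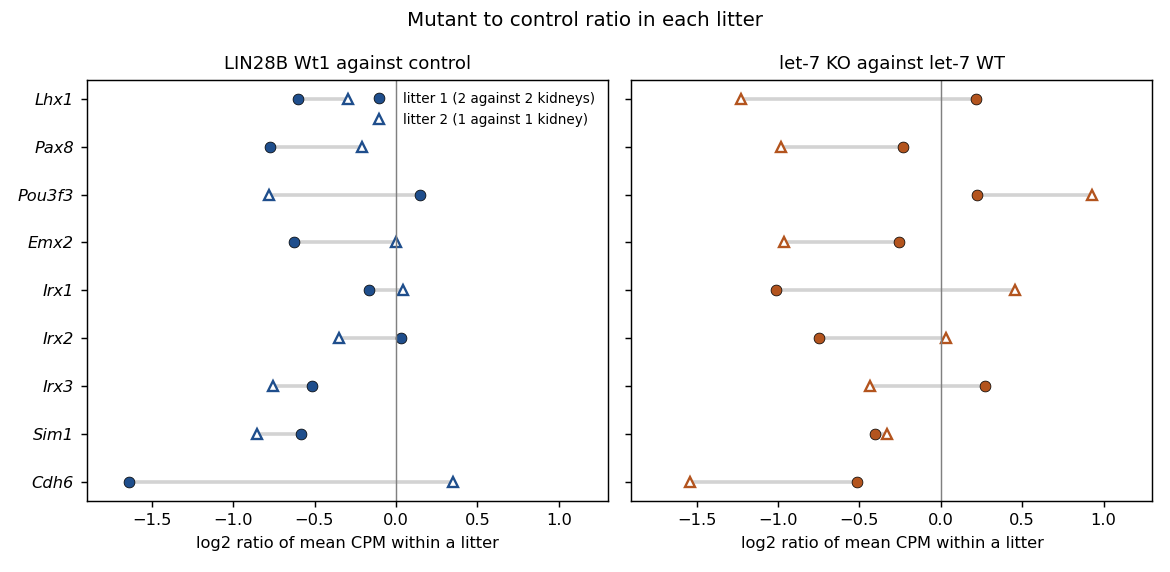
Log2 ratio of mutant to control mean CPM within litter 1 (filled circles, 2 against 2 kidneys) and litter 2 (open triangles, 1 against 1 kidney), for each gene in each experiment. In the LIN28B experiment Lhx1, Pax8, Irx3 and Sim1 lie below 0 in both litters, and Cdh6 spans from -1.64 to 0.35.

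The control groups of the experiments were also set side by side. They differ in strain, C57BL/6 against mixed CD1 and C57BL/6, and in the experiment they belong to, which cannot be told apart. No member passed p below 0.01 in edgeR's quasi-likelihood test, where 4.79% of 15850 genes did. *Lhx1* was 35.6 ± 16.8 CPM (SD, n = 3) in *let-7* WT against 70.5 ± 14.3 CPM (SD, n = 3) in *LIN28B* controls, with a log2 fold change of -0.99 (SE 0.33, adjusted p = 0.229, edgeR quasi-likelihood test with Benjamini-Hochberg adjustment). DESeq2 called it, with an adjusted p of 0.0341. *Irx1* and *Irx2* were higher in every *let-7* WT kidney than in any *LIN28B* control, with log2 fold changes of 0.71 and 0.50, and *Lhx1* and *Emx2* were lower in every one. These 4 of 9 members without overlap compare with 20.0% of all genes in either direction. The log2 fold change of *Lhx1* between the control groups (95% interval -1.72 to -0.27) was larger in size than that of either mutant, with intervals that overlapped.

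Levels of the members were also compared with each other over the 12 kidneys, as a description, since all values of a kidney share a library. *Pax8* and *Emx2* ran closest (Pearson's r of log2 CPM 0.88, and 0.85 after each group's mean was removed), followed by *Emx2* and *Cdh6* (0.84 and 0.67) and *Pax8* and *Cdh6* (0.83 and 0.61). *Pou3f3* ran against *Emx2* (-0.61, and -0.87 without group means) and against *Pax8* (-0.53 and -0.75). *Irx1* and *Irx3* were unrelated over all kidneys (-0.07) but ran against each other within groups (-0.86).

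Over all 16597 other genes with enough reads, the gene most like *Emx2* was *Cpm*, which encodes carboxypeptidase M (r 0.99), followed by *Spry1*, a feedback inhibitor of receptor tyrosine kinases in the ureteric bud (0.96), and *Pkd1*, a polycystic kidney disease gene (0.95). *Lhx1* ran with *Sfrp2*, which encodes a secreted Wnt binding protein (0.95), *Svopl* (0.92) and *Lrp4* (0.92). *Pax8* ran with *S1pr3* (0.96), *Tubgcp4* (0.95) and *Fam120b* (0.93). *Irx3* ran with *Klhdc7a* (0.94), *Tmem45b* (0.92) and *Bmp4* (0.88), and *Cdh6* with *Fto*, *Nid1* and *Zbtb1* (0.94 each). *Pou3f3* ran with *Purg* (0.93), *Stoml1* (0.91) and *Pgam2* (0.90), *Irx1* with *Dusp14* (0.93), *Srrm4* (0.93) and *Pick1* (0.88), *Irx2* with *Flad1* (0.89), *Gm2115* (0.87) and *Wipf3* (0.86), and *Sim1* with *Kansl1l* (0.88), *Gm6498* (0.87) and *Sptlc3* (0.87). These are the 3 highest of 16597 values for each member, and each value rests on 12 kidneys.

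The 250 bases before the start of *Pax8*, which fell with excess LIN28B, and of *Lhx1*, which lay lower without passing the threshold, are shown as examples of start regions with a CCAAT match. *Irx3* and *Sim1*, whose mutant kidneys also lay below all controls with excess LIN28B, had no such match in their start regions. The printed regions are written on the strand of the gene, at chr2:24475600-24475849 and chr11:84525535-84525784, both on the minus strand (RefSeq, GRCm38.p6), with a CCAAT sequence or its reverse complement ATTGG in capitals.
Pax8: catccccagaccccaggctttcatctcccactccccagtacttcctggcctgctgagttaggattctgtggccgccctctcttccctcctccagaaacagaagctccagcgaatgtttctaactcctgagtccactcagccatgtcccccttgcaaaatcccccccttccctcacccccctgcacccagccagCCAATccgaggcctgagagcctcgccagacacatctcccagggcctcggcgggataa
Lhx1: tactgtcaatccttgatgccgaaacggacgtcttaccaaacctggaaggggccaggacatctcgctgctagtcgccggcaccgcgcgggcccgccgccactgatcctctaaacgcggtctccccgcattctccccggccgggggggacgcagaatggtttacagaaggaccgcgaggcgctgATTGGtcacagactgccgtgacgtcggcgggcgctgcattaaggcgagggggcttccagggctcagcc
The capitals end 52 bases before the start in *Pax8* and 63 bases before it in *Lhx1*. Start regions of 300 bases were found for 8 of the 9 members. CCAAT, on either strand, was in 5 of these 8 (*Emx2*, *Irx2*, *Lhx1*, *Pax8* and *Pou3f3*) and in 37.4% of 32851 start regions. TATAAA, on either strand, was in 1 (*Sim1*, only as the reverse complement TTTATA), against 13.6% of all. CTTTGA, the core that TCF and LEF factors of the Wnt pathway bind, was on neither strand in any of the 8, against 5257 of the 32851. This says only that these letters are not in this window.

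Other genes of the renal vesicle and S-shaped body give the setting of the members. Of 24 such genes, all tested, 4 fell with excess LIN28B at p below 0.01 in edgeR's quasi-likelihood test and none rose, with a median log2 fold change of -0.28. *Lfng*, a modifier of Notch receptors, fell from 38.5 ± 5.77 to 19.3 ± 0.639 CPM (SD, n = 3 each), a log2 fold change of -0.997 (adjusted p = 0.0409, edgeR quasi-likelihood test with Benjamini-Hochberg adjustment). *Papss2*, which supplies activated sulfate, fell from 88.4 ± 15.3 to 44.7 ± 7.74 CPM (SD, n = 3 each), a log2 fold change of -0.98 (adjusted p = 0.0459, edgeR quasi-likelihood test with Benjamini-Hochberg adjustment). *Osr2* (-0.60) and *Tmem100* (-0.67) fell without passing the adjusted threshold. The 4 became 9, with 1 gene raised, when the litter 2 mutant (replicate 3) was left out. They became 3 without control replicate 3 and 2 without any 1 of the other 4 kidneys.

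In *let-7* KO 3 of the 24 fell and 1 rose at p below 0.01 in edgeR's quasi-likelihood test, none past the adjusted threshold, with a median of 0.003. The Notch ligand gene *Dll1* (-1.26), *Osr2* (-0.67) and *Papss2* (-0.62) fell and *Tmem100* (1.14) rose. With the litter as a replicate block none of the 3 kept a p below 0.01 in edgeR's quasi-likelihood test, while *Tmem100* did. The lowered genes numbered 0 without WT replicate 3 or KO replicate 2, 2 without KO replicate 1, and 1 without any other kidney or with RLE or upper-quartile factors. *Tmem100* kept its call in 1 of 6 fits that left out a kidney, the one without WT replicate 3.

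Of 16 further genes of the members' own families, 10 were tested. With excess LIN28B the cadherin gene *Cdh2* rose (1.02) and *Cdh16*, the kidney cadherin, fell (-0.47), neither past the adjusted threshold, and in *let-7* KO none passed p below 0.01 in edgeR's quasi-likelihood test. *Cdh1* (-0.49 and -0.66) and *Sim2* (-0.83 and -0.65) had the next lowest p, in *LIN28B Wt1* and *let-7* KO.

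Genes on either side of the renal vesicle in nephron formation moved apart with excess LIN28B, as the plot of gene lists shows. Of 12 cap mesenchyme genes tested, 7 rose and none fell at p below 0.01 in edgeR's quasi-likelihood test (6 past the adjusted threshold), with a median log2 fold change of 1.19. They include the progenitor genes *Six2* (3.35), *Cited1* (3.33), *Osr1* (1.63) and *Crym* (1.56). Of 15 proximal tubule genes 11 fell, among them *Gatm* (-1.52), *Slc34a1* (-1.20), *Miox* (-1.63) and *Slc22a8* (-1.26), with a median of -0.78. Of 15 genes of the loop and distal tubule 9 fell, among them *Slc12a3* (-1.95), *Ptger3* (-1.59), *Cldn10* (-0.86) and *Umod* (-1.23), with a median of -0.86.

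With excess LIN28B the median of the 9 members, -0.51, lay between these. That position is not particular to them. The medians of the other renal vesicle (-0.28), ureteric tip and collecting duct (0.06), podocyte (-0.11) and stromal genes (-0.41) and of all genes (-0.02) lay there too. Summed over its genes, the cap mesenchyme list stood at 386 to 429 CPM in controls and 667 to 831 CPM in *LIN28B Wt1* kidneys. The proximal tubule list stood at 4684 to 4923 and 2073 to 2510 CPM, and the 9 members at 503 to 581 and 359 to 430 CPM. The part that these shifts in other cells of the nephron have in the members' values was not tested.

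In *let-7* KO kidneys 1 of 12 cap mesenchyme genes rose (*Gdnf*, 2.20, the ligand of Ret), and 5 of 15 proximal tubule genes fell, with *Gatm* (-0.97) and *Slc22a8* (-0.64) among them. The cap mesenchyme count was 0 in 5 of 6 fits that left out a kidney, 2 without KO replicate 1, 2 with DESeq2 and 3 in the fit of all 12 kidneys. The proximal tubule count was 2 without KO replicate 1, 3 without WT replicate 3 or KO replicate 2, and 4 or 5 in the other alternatives. None of the 15 genes of the loop and distal tubule passed p below 0.01 in edgeR's quasi-likelihood test with all kidneys, but 4 were lowered without KO replicate 1. In the other alternatives at most 1 was raised and 1 lowered. The members summed to 393 to 526 CPM in WT and 323 to 399 CPM in KO kidneys. Their median log2 fold change, -0.43, did not lie between those of the lists here. It was below those of cap mesenchyme (0.43), proximal tubule (-0.35) and loop and distal tubule genes (-0.38).

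**Figure D4:**
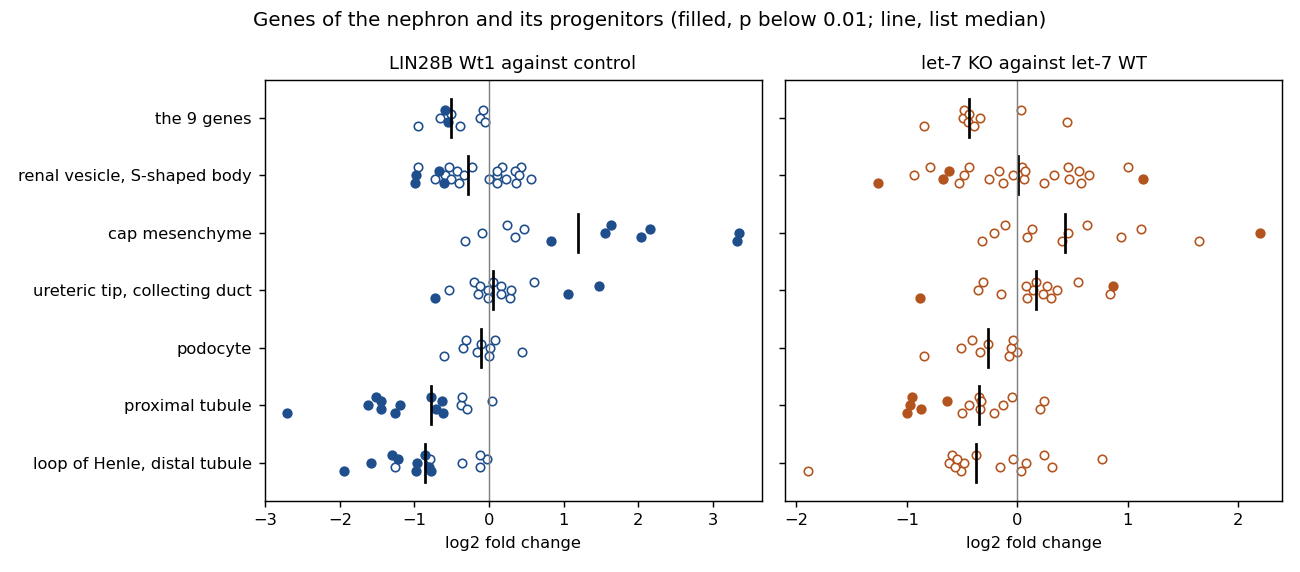
Log2 fold change of the 9 genes and of the tested genes of 6 lists of nephron, progenitor and duct genes, in LIN28B Wt1 against control (left) and let-7 KO against let-7 WT kidneys (right). Filled points had p below 0.01 in edgeR's quasi-likelihood test and black lines are list medians. On the left the median of the 9 genes (-0.51) lies between those of cap mesenchyme (1.19) and loop and distal tubule genes (-0.86), as do those of the other lists shown. On the right their median (-0.43) lies below those of cap mesenchyme (0.43), proximal tubule (-0.35) and loop and distal tubule genes (-0.38).

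Lists for other cell types also held calls. Over all genes tested, 7.33% had a p below 0.01 with excess LIN28B and 2.73% in *let-7* KO (edgeR quasi-likelihood test). Of 15 ureteric tip and collecting duct genes, *Etv4* (1.06) and *Ret* (1.47) rose and *Calb1* (-0.73) fell with excess LIN28B, and *Krt18* (0.87) rose and *Calb1* (-0.88) fell in *let-7* KO. With excess LIN28B the 2 raised genes became 1 without control replicate 1, control replicate 2 or mutant replicate 1, and 1 in the fit of all 12 kidneys. In *let-7* KO the counts stayed at 1 raised and 1 lowered without KO replicate 1, were 0 and 0 without KO replicate 2 or 3, and lost 1 call without each of the 3 WT kidneys. No podocyte gene of 9 passed p below 0.01 in edgeR's quasi-likelihood test in either mutant, the lowest p over both mutants being those of *Synpo* (-0.35 and -0.51), *Cd2ap* (-0.16 and -0.34), *Magi2* (-0.61 and -0.84) and *Podxl* (-0.114 and -0.405). Of 9 stromal genes *Pdgfra* (-0.69) and *Pdgfrb* (-0.81) fell with excess LIN28B and *Col1a1* (0.04, and 0.62 in *let-7* KO) and *Dcn* (-0.41 and 0.23) had the next lowest p over both mutants, without passing. Of 7 tested blood and immune genes *Csf1r*, a macrophage receptor gene, fell from 30.9 ± 2.83 to 15.4 ± 4.56 CPM (SD, n = 3 each) with excess LIN28B. *Lyz2* (-0.99 in *let-7* KO), *Ptprc* (-0.65 and -0.55) and *Cd3e* (0 to 11 counts in *LIN28B* controls and 31 to 50 in mutants) did not pass. *Hba-a1*, *Hbb-bs* and *Hbb-bt* were listed at 0 in every kidney, while *Alas2* of the same list was at 33.1 to 91.6 CPM. Why the globin genes had no counts was not tested, and their zeros do not show that blood cells were absent.

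The summed level of 10 adrenal genes was between 3.05 and 5.25 CPM in *LIN28B* controls and between 8.10 and 8.60 CPM in *LIN28B Wt1* kidneys. *Pnmt*, an enzyme gene of the adrenal medulla, was listed at 0 in the 3 controls and at 2.45 to 3.42 CPM in the mutants, the 1 adrenal gene of 4 tested to pass. *Star* (0.69 and -0.16), *Mc2r* (-0.73, tested with excess LIN28B only) and *Hsd3b1* (-1.14, tested in *let-7* KO only) did not pass, and *Cyp11b2* was at 0 in all 12 kidneys. These sums are small beside the 359 CPM of the lowest *LIN28B Wt1* kidney for the members, and their part in the members' values was not tested.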

How the data were processed

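The authors isolated RNA from each whole kidney, made libraries with a SMARTer Ultra Low RNA kit (V3), sequenced them on an Illumina HiSeq instrument and deposited raw read counts per gene symbol, 1 table per kidney. The submitters' processing notes name cutadapt, TopHat2 2.0.9, Bowtie2, SAMtools 0.1.19, HTSeq and the build mm10. Whether counting used strand is not given in the sources used here. Reads of *Emx2* with *Emx2os*, *Irx3* with its antisense gene (124 shared exonic bases) and *Pax8* with *Gm13415* (367 shared exonic bases) may therefore not be separable.

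Groups came from the genotype and strain labels. The kidneys are labelled as separate libraries, from 2 litters per group, and no pair within a group was a repeat (chi-square per gene of 30.8 or more). Each comparison of 3 against 3 kidneys was fitted over all genes by the two-sided quasi-likelihood test of edgeR 4.0.16, run in R 4.3.3, on TMM-scaled libraries. Genes were kept by filterByExpr at its defaults, with its minimum count setting at 10 and its minimum total count setting at 15. A call is an unadjusted p below 0.01, the study's threshold, with Benjamini-Hochberg adjusted p below 0.05 beside it. The difference between effects was tested as an interaction over all 12 kidneys. An exact permutation test over 3 against 3 kidneys cannot go below p = 0.1, and p was 0.1 for each member without overlap. The script was tested on simulated counts. Intervals cover the fit, and read counts without molecular identifiers are not independent molecules.

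Mutants and controls were paired by the litter number in their labels, and it is assumed that the same number means the same litter. Deviations from group means correlated at -0.039 within and 0.048 between litters for *LIN28B Wt1*, and at -0.001 and 0.002 for *let-7*. The litter was kept out of the main fit and used as a block in an alternative. Other alternatives were DESeq2 1.42.0, RLE and upper-quartile factors, no filter, 1 fit of all 12 kidneys and each kidney left out in turn. Positions, 3′ UTRs and lengths came from GENCODE M21 (GRCm38). Start regions came from RefSeq.

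The members and lists were chosen with earlier results of these data known. Genes that are not reported here were left out of the lists, their counts and their medians after the fits, which ran over all genes. Of each other list the text names up to 4 genes with the lowest p in either mutant, and the called genes of the renal vesicle list. The latter and *Gdnf* were chosen after their values were seen, as was *Th*, a gene of the adrenal list that was tested in no comparison. For each member it names the 3 genes of highest Pearson correlation over the 12 kidneys. The qRT-PCR, imaging and physiology of the study were not analysed here.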

Additional observations from a re-analysis of the deposited data

Results flagged for a closer look

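The following genes of the lists had effects that differed between the mutants at an unadjusted p below 0.01 in the fit of all 12 kidneys (edgeR quasi-likelihood test, no adjusted p below 0.05), among the named genes only. No member did. Values are the log2 effect in *let-7* KO minus that in *LIN28B Wt1*. *Tmem100* of the renal vesicle list differed by 1.83 (adjusted p = 0.314, edgeR quasi-likelihood test with Benjamini-Hochberg adjustment). Its mean was 24.0 ± 3.99 CPM in *LIN28B Wt1* against 38.2 ± 5.46 CPM in controls, and 27.3 ± 5.07 CPM in *let-7* KO against 12.3 ± 5.45 CPM in *let-7* WT (SD, n = 3 each). All 17 alternatives kept its p for the difference below 0.01. *Lfng* differed by 0.85, with a p below 0.01 in 6 of 17 alternatives.

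The cap mesenchyme genes *Six2*, *Cited1* and *Crym* differed by -2.39, -2.18 and -1.07. The proximal tubule genes *Slc34a1*, *Gatm* and *Miox* differed by 0.78, 0.56 and 1.60, and the distal genes *Slc12a3* and *Cldn10* by 1.38 and 0.96.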

How the results depend on the processing

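With 3 kidneys a group, the calls of the 9 genes depended on single kidneys. With excess LIN28B the 2 called members became 0 at an adjusted p below 0.05, 1 with RLE factors, 1 in the fit of all 12 kidneys and between 0 and 3 when 1 kidney was left out. The 3 calls came without the litter 2 mutant (replicate 3) and were *Pax8*, *Emx2* and *Cdh6*, and 0 came without control replicate 1, control replicate 2 or mutant replicate 1. DESeq2 called 3 (*Pax8*, *Irx3* and *Cdh6*). In *let-7* KO the count of 0 ranged from 0 to 1 with a kidney left out (*Cdh6*, without KO replicate 1). For the difference between effects it ranged from 0 to 1 (*Irx3* at 0.79, without KO replicate 3). Between the control groups *Lhx1* made the count 1 with DESeq2, 1 with upper-quartile factors, 1 with no filter and 1 in the fit of all 12 kidneys, and leaving out a kidney gave 0 to 1.

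Of 468 alternative values of the 9 genes, 425 kept direction and side of the threshold, 12 lost a call, 13 gained one and 18 changed sign. Every change of sign came from leaving out a kidney. With excess LIN28B these were *Irx2* (-0.19 to 0.17), *Irx1* (-0.238 to 0.025) and *Pou3f3* (-0.308 to 0.089). In *let-7* KO they were *Lhx1* (-0.643 to 0.045) and *Irx3* (-0.16 to 0.20). For the difference they were *Cdh6* (-0.44 to 0.55), *Pax8* (-0.069 to 0.292), *Emx2* (-0.22 to 0.10) and *Lhx1* (-0.12 to 0.58). Of the named renal vesicle genes, which are outside the 468 values, *Osr2* changed sign for the difference (-0.18 to 0.14) and *Dll1* between the control groups (-0.37 to 0.13), also on leaving out a kidney.

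The litter as a replicate block changed no call of the 9 genes but took away those of *Dll1*, *Osr2* and *Papss2* in *let-7* KO and that of *Lfng* for the difference, and the genes called went from 1158 to 904 with excess LIN28B, 423 to 288 in *let-7* KO and 257 to 207 for the difference. Over all genes, leaving out a kidney gave 515 to 2509 calls with excess LIN28B, 162 to 1296 in *let-7* KO, 165 to 461 for the difference and 454 to 1130 between control groups. DESeq2 gave 1726, 843, 413 and 1141 calls in that order, where 759 was the count between control groups. The fit of all 12 kidneys gave 687 in *let-7* KO. The cause of these shifts was not tested.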

Other observations

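In the renal vesicle list 14 of 24 genes had a negative log2 fold change with excess LIN28B and 12 in *let-7* KO. The following genes of that list were picked after their values were seen, and none passed p below 0.01 in edgeR's quasi-likelihood test. *Fgf8*, a growth factor of the early vesicle, was 20.6 ± 3.92 CPM in *LIN28B Wt1* against 13.9 ± 0.298 CPM in controls, and 9.05 ± 3.06 CPM in *let-7* KO against 4.44 ± 1.98 CPM in *let-7* WT (SD, n = 3 each). *Pax2*, the partner of *Pax8* in the nephric lineage, was 26.9 ± 2.97 against 21.2 ± 2.50 CPM and 16.5 ± 2.09 against 10.9 ± 3.94 CPM (SD, n = 3 each). *Wnt4*, which drives the condensed cells to become epithelium, was 167 ± 33.5 against 143 ± 34.3 CPM and 162 ± 26.6 against 108 ± 35.5 CPM (SD, n = 3 each). *Lef1*, a transcription factor of the Wnt pathway, was at 31.2 to 39.2 CPM in the 3 *LIN28B Wt1* kidneys against 40.8 to 49.6 CPM in the 3 controls, and was 40.4 ± 3.82 CPM in *let-7* KO against 38.3 ± 3.27 CPM in *let-7* WT (SD, n = 3 each). The Notch ligand gene *Jag1* was 43.9 ± 11.3 against 66.3 ± 16.6 CPM and 61.3 ± 6.03 against 87.8 ± 32.2 CPM (SD, n = 3 each).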
